A study of Mus musculus with 12 samples.

Results

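Plagl1 and Peg3 are imprinted mouse genes that encode zinc finger transcription factors, and the methylation of the start of each gene was followed through 12 libraries. A cytosine was taken as a member if it lay in mm9 chr10:12810400-12811000 (Plagl1) or chr7:6681800-6683100 (Peg3 and Usp29) and was methylated at 20% or more in any of the 12 libraries. This gave 88 of the 172 listed cytosines of the Plagl1 window and 9 of the 33 of the Peg3 window, 97 members among 8119606 listed positions, of which 1710224 reached 20% somewhere. The value given for a window is the mean over its members in a library.

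The assay was RRBS, reduced representation bisulfite sequencing, in which DNA is cut at CCGG by the enzyme MspI and the short fragments, rich in CpG, are read. Stem cell libraries came from haploid embryonic stem cells of parthenogenetic origin (phESC, carrying a maternal genome), haploid ones of androgenetic origin (ahESC, carrying a paternal genome) and diploid embryonic stem cells (ESC), each at late and at early passage and each labelled WT. Tissue libraries came from whole embryos at E15.5 (E for embryonic day) that were bimaternal (BM, from a phESC injected into an oocyte), bipaternal (BP, from an ahESC and a sperm injected into an enucleated oocyte) or WT, and from brains of BM adults, BM at E19.5 and WT adults. All BM and BP samples are labelled DMR-KO, meaning that differentially methylated regions were knocked out. The labels do not name the regions, so if Plagl1 or Peg3 were among them a value in BM or BP would reflect just the undeleted copy. The ages of the adults, the strains, the lines and any pooling of animals are not given in the sources used here.

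Each group is 1 library, so no value carries a replicate error and no difference between libraries was tested. The read depth behind each percentage is unknown. The libraries had values at 46.48% to 72.71% of the listed positions and did not all cover the same cytosines. Late phESC, late ahESC, BM adult brain and WT adult brain also had 2348, 4124, 2209 and 7697 values on unplaced sequence of chromosome Y, where the other 8 libraries had 0. Comparisons of late haploid cells with early haploid or late diploid cells, and of an adult brain with an E19.5 brain or embryo, cross these 2 kinds of library, and the kind of library and the group cannot be told apart there. Late phESC and BM adult brain are of maternal origin by their labels, and the source of their values on chromosome Y sequence was not tested.

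An imprinted gene is read mainly from the copy of 1 parent. At genes of the kind followed here the silent copy carries DNA methylation laid down in the germ line. Plagl1 (also called Zac1) and Peg3 are both known as genes that are methylated on the maternal copy and expressed from the paternal copy, in many tissues of the embryo and, for Peg3, in the adult brain. In textbook terms a window of this kind is thus methylated on the maternal chromosome, unmethylated on the paternal one, and intermediate where both are present. Usp29 encodes a ubiquitin-specific protease and starts next to Peg3 in the opposite direction.

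No mm9 sequence was at hand, so sequence was placed on mm9 by the pattern of the listed positions alone. The RefSeq promoter of Plagl1 (GRCm38.p6 chr10:13090582-13090881, plus strand) was placed at mm9 chr10:12810388-12810687 with 52 listed positions on fitting bases, and the start of the gene came to 12810638. Most first exons of Plagl1 in GENCODE M21 started there and ran to 12810826 or 12810830. First exons of Peg3, which lies on the minus strand, were placed at chr7:6682969-6683130 and up to 6683142, with 34 positions, and the promoter of Usp29 at chr7:6683044-6683343, with 16. The promoter of Peg3 itself could not be placed. Within the placed sequence all 61 Plagl1 members and all 8 Peg3 members were CpG cytosines, and none was a cytosine that only precedes or follows G outside CpG. The other 27 Plagl1 members lay beyond the placed sequence, as did the lone Peg3 cytosine at 6681801, which had a value in the WT adult brain alone, at 50%.

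The promoter of Plagl1 is shown because it holds the upstream members, and a stretch of the first exon of Peg3 because its 3 CpGs carry the 6 cytosines measured in all 12 libraries. Capitals mark the CpGs with member cytosines, which are 14 of the 26 CpGs of the Plagl1 promoter and all 3 of the Peg3 stretch. The Plagl1 sequence is from RefSeq (GRCm38.p6), and the Peg3 sequence is from GENCODE M21 (GRCm38), given on the plus strand at mm9 chr7:6682988-6683014.
Plagl1 promoter: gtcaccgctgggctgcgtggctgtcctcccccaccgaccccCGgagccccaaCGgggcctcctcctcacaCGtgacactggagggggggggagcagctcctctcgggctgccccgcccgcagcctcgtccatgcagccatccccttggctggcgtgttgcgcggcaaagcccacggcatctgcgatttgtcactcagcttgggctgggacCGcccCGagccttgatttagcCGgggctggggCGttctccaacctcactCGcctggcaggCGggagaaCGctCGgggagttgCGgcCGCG
Peg3 exon 1 stretch: taCGcacacacccCGaccagggtCGgc
ZFP57, the zinc finger protein that binds methylated imprinted regions, is known to recognise TGCCGC, and this hexamer was searched on both strands. It occurred at 1 place in the Plagl1 promoter, on the minus strand at mm9 12810548 to 12810553, where 0 cytosines were listed, so its own methylation was not measured. It was not in the promoters of Peg3 or Usp29, and 11.6% of 32851 promoters of the same length held it. The core of YY1, GCCATNTT, a factor known to bind within Peg3, was in none of the 3 promoters and in 6.05% of all promoters. A match is a run of letters and does not show binding.

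The 12 libraries fell into a methylated and a nearly unmethylated set, with the same libraries on each side in both windows. Methylation of Plagl1 was 2.19%, 1.32%, 3.93%, 1.15% and 1.13% in late phESC, early phESC, late ahESC, early ahESC and late diploid ESC, against 42.1% in early diploid ESC. In embryos Plagl1 stood at 53.5% in BM and 1.01% in BP, against 58.6% in WT. In brains Plagl1 stood at 78.1% in BM adult and 53.9% in BM E19.5, against 62.2% in WT adult. These means cover 58 to 88 cytosines a library.

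Peg3 gave the same division. It was methylated at 6.94%, 2.80%, 4.39%, 3.43% and 2.24% in late phESC, early phESC, late ahESC, early ahESC and late diploid ESC, against 53.2% in early diploid ESC. In embryos the values were 63.9% in BM and 1.86% in BP, against 60.1% in WT. In brains they were 73.4% in BM adult and 61.8% in BM E19.5, against 44.8% in WT adult. The means of Peg3 rest on 6 to 9 cytosines.

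**Figure D1:**
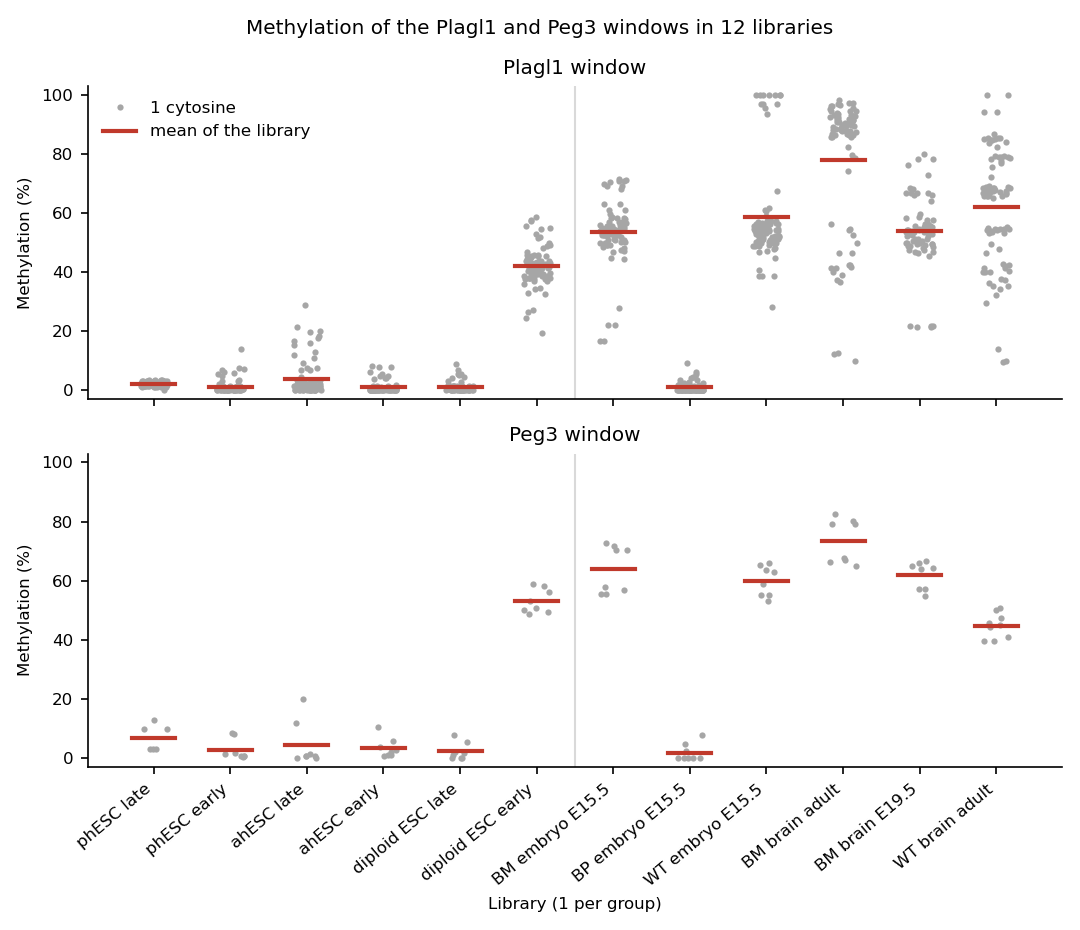
Methylation in percent (vertical axis) of each member cytosine (grey points) and the library mean (red line) in the Plagl1 window (top) and the Peg3 window (bottom), by library, with stem cells left of the grey line and tissues right of it. Early diploid ESC is the 1 stem cell library in the middle of the scale (42.1% and 53.2%), and BP is the 1 tissue library near 0 (1.01% and 1.86%).

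A background level was read from cytosines of GpC that are not in CpG, which are listed beside the members and stayed under 20% everywhere. Their mean was 0.0476% to 0.865% over the libraries at Plagl1 and 0.269% to 1.30% at Peg3. Over the 58 Plagl1 cytosines measured in all 12 libraries, early phESC, early ahESC, late diploid ESC and the BP embryo were at 0.551%, 0.520%, 0.522% and 0.464%. In the same 4 libraries the GpC cytosines were at 0.215%, 0.345%, 0.453% and 0.0476%. All 8 values are below 1%, and with depth unknown they were not told apart further. Late phESC and late ahESC were somewhat higher over the same cytosines, at 2.19% and 1.63%.

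No listed position lay within 9594 bp before or 11198 bp after the Plagl1 window, so the window is an isolated measured stretch and says nothing of the DNA around it. Its members span 567 bp. In the Peg3 window 8 of the 9 members lie within 1 MspI fragment of exon 1, from 6682973 to 6683039, and cytosines of 1 strand of a fragment come from the same reads and are not independent. The rule at 20% left a wide gap at Plagl1, where the weakest members peaked at 38.7% and the strongest other cytosine at 14.7%. At Peg3 the weakest members peaked at 50% and 65.1%, and the strongest others at 17.1%.

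Early androgenetic and early parthenogenetic haploid cells were each set against early diploid ESC to compare cells with genomes of 1 parent with cells of both. In ahESC all 76 measured Plagl1 cytosines and all 8 of Peg3 were below early diploid ESC. The window differences were -40.9 points at Plagl1 (1.15% in ahESC, 42.1% in diploid ESC) and -49.7 points at Peg3 (3.43% and 53.2%). A fall of 25 points or more, the size used here to call a difference, was met by both windows, and by 0.339% of the 61718 autosomal 1 kb tiles treated alike, while 0.298% rose by as much. The median tile differed by -1.55 points, and the tiles themselves were highly methylated in both libraries, with medians of 70.5% in early ahESC and 73.2% in early diploid ESC. The windows were thus near 0 in early ahESC while most of these tiles were not. Like the windows, the tiles hold only cytosines that reached the level of a member in some library. They say nothing of the listed positions that stayed below it.

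In early phESC, whose genome is maternal, both windows were also near 0. Plagl1 was at 1.32% in phESC and 42.1% in diploid ESC, a difference of -40.8 points, and Peg3 at 2.80% and 53.2%, a difference of -50.4 points. All 76 Plagl1 and all 8 Peg3 cytosines were lower in phESC. Here the background differed: 53.4% of 59853 tiles were lower by 25 points or more and 0.119% higher, so the 2 calls are no result about these windows. The median tile differed by -26.0 points, and the middle 90% of tiles ran from -43.2 to 0.358 points, which takes in Plagl1 but not Peg3. The level of the median tile in early phESC was 40.4%, and 5% of tiles were at 5.05% or below, a level that both windows were under.

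Early phESC and early ahESC did not differ by 25 points at either window. Early ahESC was at 1.15% at Plagl1 and 3.43% at Peg3, so phESC could not be lower by that much. Of the tiles, 46.5% were lower in phESC by 25 points or more and 0.089% higher. The difference was 0.170 points at Plagl1, where 37 of 76 cytosines were higher in phESC and 30 lower, and -0.628 points at Peg3, where 2 of 8 were higher and 6 lower. The cells with a maternal genome and those with a paternal genome were both near 0 at these genes.

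Late passage was then compared with early passage. In diploid ESC Plagl1 was at 1.13% at late passage and 42.1% at early passage, a difference of -40.9 points, and all 76 cytosines were lower late. Peg3 was at 2.24% late and 53.2% early, a difference of -50.9 points, and all 8 cytosines were lower late. Of 56994 tiles 74.3% were lower and 0.0386% higher by 25 points or more. The median was -38.7 points, so this fall was shared by most of the tiles. The windows ended lower than most tiles did, near 0 where the median tile of late diploid ESC was at 25.9% and its 5th percentile at 3.29%.

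In the haploid cells the windows were near 0 at both passages, so they could not fall by 25 points from early passage. In ahESC Plagl1 was at 3.93% late and 1.15% early, and Peg3 at 4.39% late and 3.43% early, while 0.0606% of tiles were higher and 63.3% lower by 25 points or more at late passage. In phESC Plagl1 was at 2.19% late and 1.32% early, and Peg3 at 6.94% late and 2.80% early, while 0.201% of tiles were higher and 6.16% lower by that much. In late phESC 56 of 58 Plagl1 cytosines and 6 of 6 Peg3 cytosines were above early phESC, by at most 3.48 and 12.3 points. Within the placed sequence every late ahESC value above 10% lay at CCGG. Such cytosines read 21.5% at 12810619, 20.2% at 12810693 and 16.0% at 12810694 in late ahESC, and 4.12%, 4.94% and 4.15% in early ahESC.

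At late passage the 3 cell types were alike in being low at both genes. Late ahESC differed from late diploid ESC by 2.80 points at Plagl1 and 2.16 points at Peg3, against 0.995% of tiles higher and 0.277% lower by 25 points or more. Late phESC differed from late diploid ESC by 1.06 points at Plagl1 and 4.70 points at Peg3, against 1.89% of tiles higher and 0.959% lower. None of these 4 differences reached 25 points.

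Among E15.5 embryos the bipaternal one stood apart. BP was at 1.01% and WT at 58.6% at Plagl1, a difference of -57.6 points, and BP was at 1.86% and WT at 60.1% at Peg3, a difference of -58.2 points. The 66 Plagl1 cytosines measured in both were all lower in BP, with differences from -61.6 to -46.4 points, and the 8 Peg3 cytosines likewise, from -65.4 to -52.8 points. A fall of 25 points or more was found in 0.24% of 50838 tiles and a rise in 1.34%, and the median tile differed by 0.488 points. The tiles of the BP embryo were otherwise as methylated as those of WT, with medians of 82.0% and 79.4%.

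The bimaternal embryo differed little from WT. BM was at 53.5% and WT at 58.6% at Plagl1, a difference of -5.04 points, and BM was at 63.9% and WT at 60.1% at Peg3, a difference of 3.82 points. A share of 0.585% of tiles was higher in BM and 0.059% lower by 25 points or more. Over the 58 Plagl1 cytosines that all libraries share the order was turned round, with 55.2% in BM and 52.9% in WT. The mean of WT includes a short fragment from 12810786 to 12810820 with no value in BM, whose strands were at 96.8% and 100% in WT. Cytosine by cytosine 45 of 76 were higher in BM at Plagl1, and 7 of 8 at Peg3.

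Set directly against each other, BM and BP embryos differed by 52.5 points at Plagl1 and 62.0 points at Peg3. All 66 Plagl1 and all 8 Peg3 cytosines were higher in BM, by 44.2 to 71.5 points and by 53.0 to 71.6 points. Tiles higher in BM by 25 points or more made up 0.221% of 52054, and tiles lower by as much 0.238%.

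**Figure D2:**
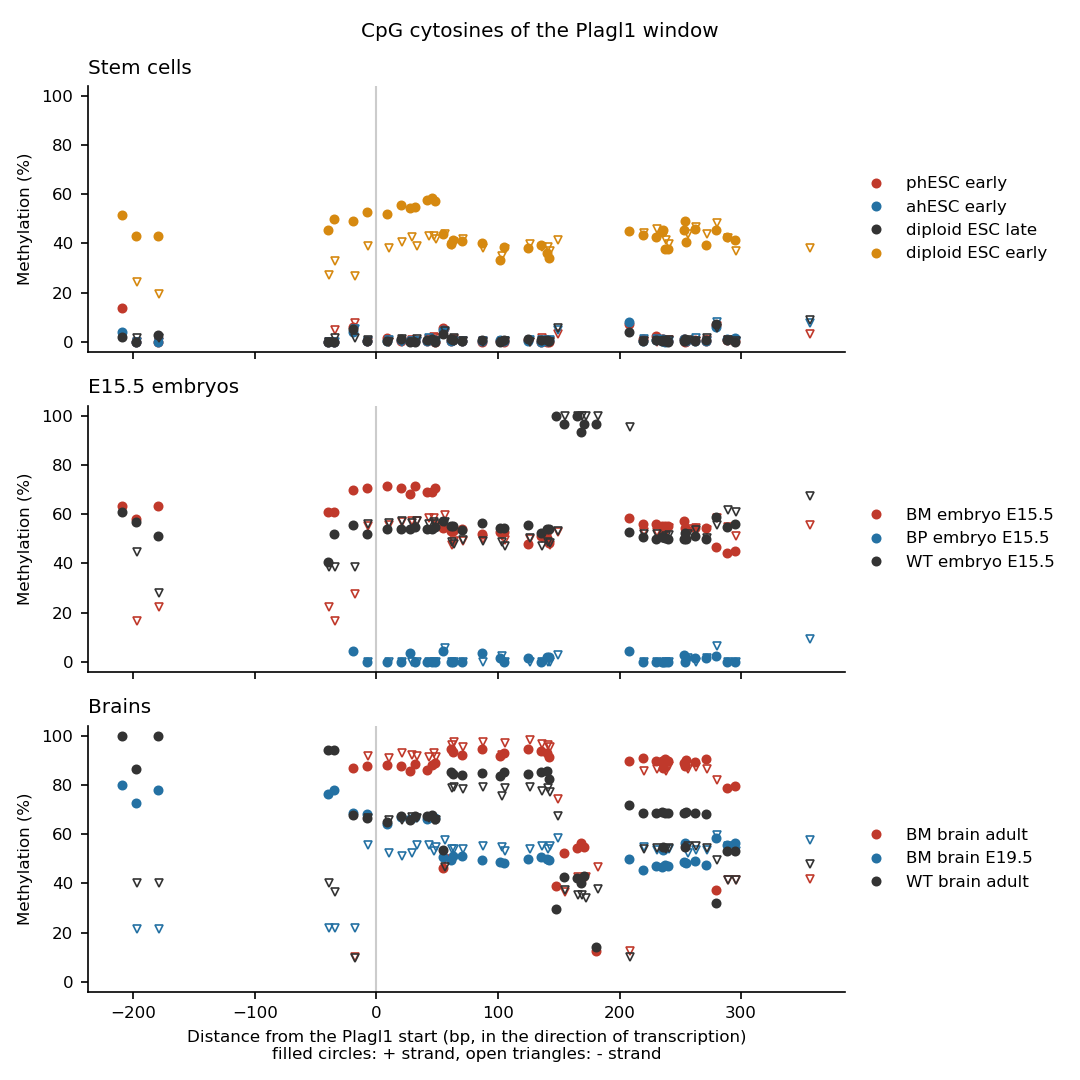
Methylation in percent (vertical axis) of the CpG and other member cytosines of the Plagl1 window by distance in bp from the gene start (horizontal axis), in 4 stem cell libraries, 3 embryos and 3 brains, with filled circles for the plus strand and open triangles for the minus strand (beyond the placed sequence, from neighbouring positions). BP stayed below 10% at all 66 members with a value in it, and in brains BM adult lay above WT adult at 75 of 79 cytosines, the exceptions including 12810693 (46.3% in BM, 53.5% in WT).

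Along Plagl1 the level changed by steps and not from cytosine to cytosine. MspI cuts the window into fragments, and on 1 strand of a fragment the cytosines outside CCGG spread over a median of 4.49 points in BM embryo, 3.77 points in WT embryo and 3.45, 3.41 and 3.04 points in BM adult, BM E19.5 and WT adult brain. Between fragment strands the levels ranged from 19.4% to 70.2% in BM embryo and from 37.6% to 100% in WT embryo. The first fragment, from 12810429 to 12810620, was split by strand, with 76.4% on the plus and 21.7% on the minus strand in the BM E19.5 brain, 60.8% and 19.4% in the BM embryo, 93.7% and 39.1% in the WT adult brain, 50.1% and 37.6% in the WT embryo, and 45.4% and 25.9% in early diploid ESC. These 5 libraries were all higher on the plus strand, over 4 cytosines a strand. The strands of a fragment are read separately, so each of these levels rests on its own reads, of unknown number.

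The second and the third fragment, from 12810619 to 12810787, cover the start and the front of exon 1. On the second fragment the plus and minus strands were at 70.2% and 56.7% in the BM embryo and at 0.446% and 0% in the BP embryo, against 53.8% and 56.6% in the WT embryo. On the third they were at 51.5% and 49.5% in BM and 1.05% and 0.244% in BP, against 54.5% and 48.6% in WT. BP was near 0 on each strand of both fragments.

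In adult brain both windows were higher in BM than in WT. Plagl1 was at 78.1% in BM and 62.2% in WT, a difference of 16.0 points that did not reach the 25 points of a call, and 75 of 79 cytosines were higher in BM. Peg3 was at 73.4% in BM and 44.8% in WT, a difference of 28.6 points, and all 8 cytosines were higher in BM, by 16.9 to 40.3 points. Tiles higher in BM by 25 points or more made up 0.0312% of 73691, or 23 tiles, those lower 0.0977%, and the middle 90% of tiles lay between -9.26 and 5.44 points, which neither window was within. The call at Peg3 was lost when every listed cytosine of the window was averaged (11.5 points) and when the strands of each placed CpG were averaged (23.1 points).

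Between the adult brains BM was higher in the mean of each fragment strand, but not at every cytosine. All 8 fragment strands of Plagl1 measured in both, counting the sequence beyond the placed part as 1 fragment, were higher in BM, by 4.89 to 25.5 points. Within that last part the difference was uneven. At 12810927 and at 12810934 the brains were nearly equal, at 41.5% in BM and 41.3% in WT, and 12810995 was lower in BM. The means of that part therefore do not stand for each stretch of it. On the second fragment the strands were at 87.7% and 91.9% in BM and 66.7% and 66.3% in WT, and on the third at 93.3% and 96.2% in BM and 84.6% and 78.3% in WT. On the Peg3 fragment the plus strand was at 79.5% in BM and 40.2% in WT, and the minus strand at 66.2% in BM and 44.9% in WT. Some CCGG cytosines departed from their neighbours in both brains, as at 12810620 of Plagl1, which read 9.99% in BM and 9.53% in WT.

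**Figure D3:**
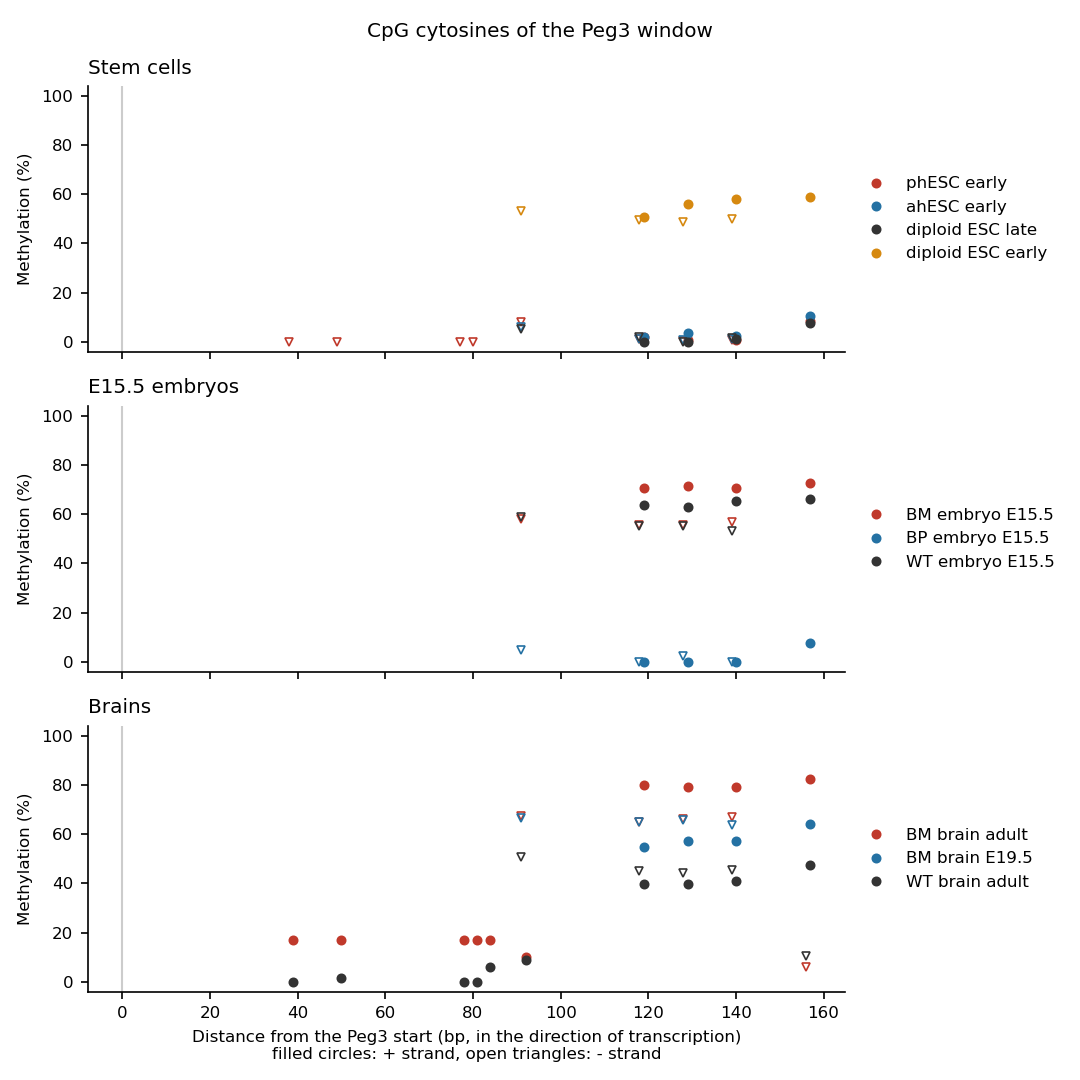
Methylation in percent (vertical axis) of the CpG cytosines of Peg3 exon 1 by distance in bp from the gene start in the direction of transcription (horizontal axis), in 4 stem cell libraries, 3 embryos and 3 brains, with filled circles for the plus strand and open triangles for the minus strand. In the fragment that holds the members, BM adult brain lay at 65.1% to 82.6% and WT adult brain at 39.7% to 50.6%, apart from CCGG cytosines near 10% in both, and BM adult read 17.1% in the next fragment, closer to the start.

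The individual Peg3 cytosines show the same order. At 6682990, in the first CpG of the printed stretch, the plus strand was at 79.2% in BM adult brain, 57.1% in BM E19.5 brain and 41.1% in WT adult brain, and its partner on the minus strand, 6682991, was at 67.1%, 63.8% and 45.5%. At the same plus strand cytosine the embryos were at 70.5% in BM and 0% in BP, against 65.4% in WT. Early phESC and early ahESC were at 0.602% and 2.56% there, against 58.1% in early diploid ESC. Over the 8 cytosines measured in both adult brains the lowest of BM, 65.1%, was above the highest of WT, 50.6%.

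The adult BM brain was also set against the E19.5 BM brain. Plagl1 was at 78.1% in the adult and 53.9% at E19.5, a difference of 24.2 points, just under a call, and 60 of 67 cytosines were higher in the adult. Over the cytosines measured in both the difference was 30.7 points, past 25. Peg3 was at 73.4% in the adult and 61.8% at E19.5, a difference of 11.6 points with 8 of 8 cytosines higher. The direction turned to -2.18 points with the strands of placed CpGs averaged and to -0.486 points over every listed cytosine. Both settings add CCGG cytosines 6682974 and 6683038, at 6.23% and 10.2% in the adult and without a value at E19.5. Every listed cytosine also adds others at 17.1% in the adult alone of these brains. The libraries were then averaged over different cytosines. The background went the other way, with a median tile of -10.8 points, 0.219% of tiles higher and 10.1% lower by 25 points or more. On the third fragment of Plagl1 the strands were at 93.3% and 96.2% in the adult and 49.9% and 54.4% at E19.5.

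The E19.5 BM brain and the E15.5 BM embryo were close at both genes. The difference was 0.354 points at Plagl1 (53.9% in brain, 53.5% in embryo) and -2.05 points at Peg3 (61.8% and 63.9%), where 3.87% of tiles were higher and 0.533% lower by 25 points or more. In WT the adult brain differed from the embryo by 3.60 points at Plagl1 (62.2% and 58.6%), or 15.9 points over the 58 cytosines shared by all libraries (68.8% and 52.9%) and 12.9 points by the median, and by -15.2 points at Peg3 (44.8% and 60.1%), where 2.39% of tiles were higher and 3.83% lower. All 8 Peg3 cytosines were lower in the WT brain, with differences from -24.3 to -7.64 points. At Plagl1 64 of 88 were higher in it and 24 lower.

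Stem cells were then set beside the embryos of the same parental origin. The stem cells are labelled WT and the BM and BP embryos DMR-KO. Genotype and kind of sample therefore cannot be told apart in those pairs. The BM embryo was higher than early phESC by 52.2 points at Plagl1 (53.5% and 1.32%) and by 61.1 points at Peg3 (63.9% and 2.80%), but 65.2% of 55627 tiles were higher by 25 points or more and 0.279% lower, so the calls are not particular to these genes. The BP embryo and early ahESC were both near 0, with differences of -0.145 points at Plagl1 and -1.56 points at Peg3, while 16.2% of tiles were higher and 2.9% lower in the embryo. The WT embryo exceeded early diploid ESC by 16.5 points at Plagl1 (58.6% and 42.1%), or 10.1 points over the shared cytosines, and 6.90 points at Peg3 (60.1% and 53.2%), neither a call, against 14.2% of tiles higher and 5.2% lower. The labels do not say whether these stem cell lines gave rise to these embryos.

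**Figure D4:**
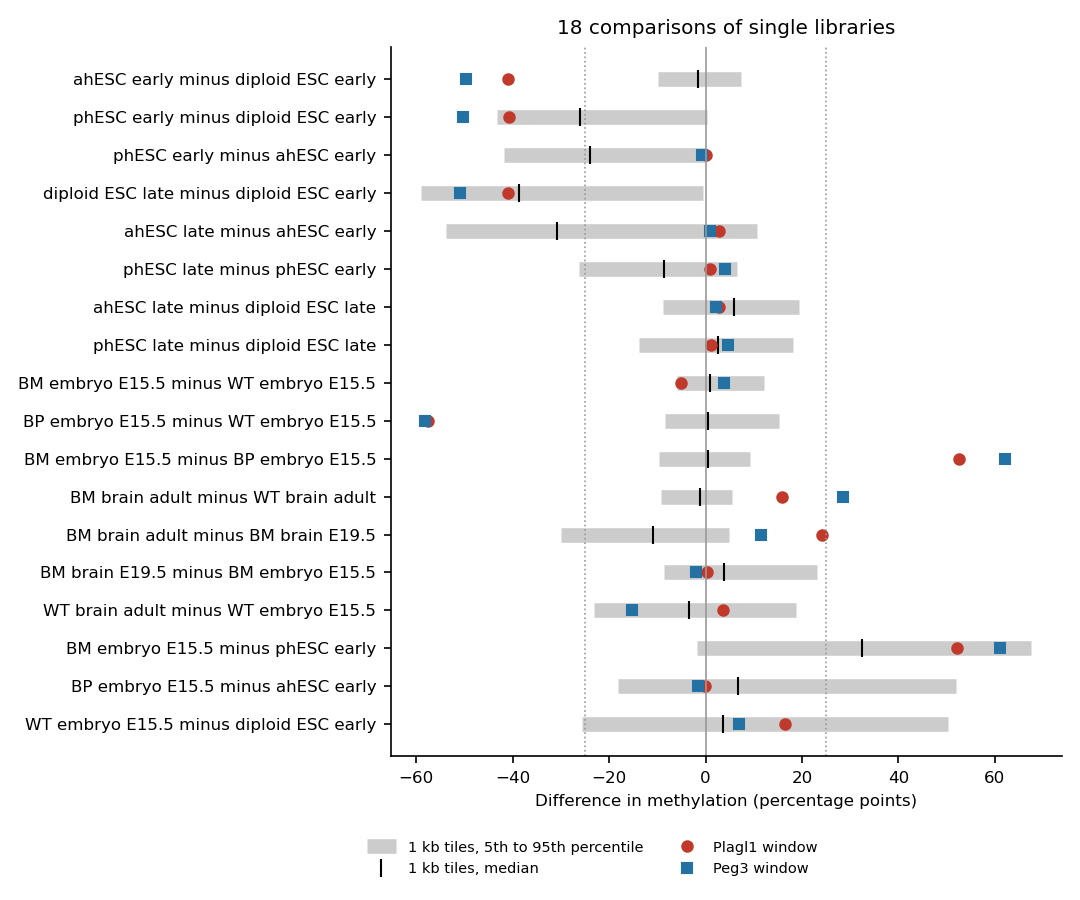
Difference in methylation in percentage points (horizontal axis) in 18 comparisons of single libraries, for the Plagl1 window (red circles) and the Peg3 window (blue squares) beside the autosomal 1 kb tiles (grey bar from the 5th to the 95th percentile, black tick at the median), with dotted lines at 25 points. Both windows lay far outside the bar in early ahESC against early diploid ESC, in BP against WT and in BM against BP embryo, and above it in BM against WT adult brain.

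Promoters of the neighbouring genes were listed to see whether the change reached them. Of 7 genes on the Plagl1 side 4 had a promoter that could be placed, Phactr2, Ltv1, Pex3 and Stx11, and over all their CpG cytosines none exceeded 7.44% in any library. Of 7 genes listed for the Peg3 side 3 were placed. Zim1, an imprinted zinc finger gene next to Peg3, was at 0% to 3.25%. Zscan18, another zinc finger gene, was at 0.272% to 6.67%. Its promoter was placed at chr7:13388938-13389237, far from the start of Peg3 at 6683130, so its level says nothing of the close neighbours. Clcn4, a chloride channel gene farther along chromosome 7, was the exception, from 1.77% to 70.8% over 46 cytosines, of which the libraries covered different ones. Clcn4 was at 63.0% and 46.7% in early phESC and early ahESC, against 5.44% in early diploid ESC. At late passage it was at 1.77% in phESC, 25.9% in ahESC and 45.8% in diploid ESC. In embryos it was at 70.8% in BM and 2.50% in BP, against 54.7% in WT. Because the cytosines differed between libraries, no order of the libraries was read from these values.

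Genes that maintain or erase methylation were listed as well. Of 11 such genes 4 could be placed, namely Dnmt1, the maintenance methyltransferase, Uhrf1, its partner at replicated DNA, Dnmt3a, a de novo methyltransferase, and Tet2, which oxidises methylcytosine. All 4 promoters were under 5% in all 12 libraries, the highest value being 3.69%. Promoter methylation says nothing of how much of these proteins the cells had.

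The labelled cell and tissue types could be checked only in part, since methylation of a promoter is not its expression. None of the 7 listed pluripotency promoters could be placed. Of 6 germline genes, which are known to gain promoter methylation in somatic tissue, 5 were placed. Dazl, an RNA-binding protein of germ cells, was at 84.0% to 97.3% in the 6 tissues and 12.6% to 54.8% in the 6 stem cell libraries, and Mael, of the piRNA pathway, at 78.5% to 88.6% in tissues and 7.97% to 21.9% in stem cells. Ddx4, a germ cell RNA helicase, and Asz1, of the piRNA pathway, likewise had their lowest tissue value, 64.9% and 83.2%, above their highest stem cell value, 21.1% and 60.1%. Tex101, a germ cell surface protein, barely separated the 2 kinds, with 82.6% in BM adult brain and 83.4% in WT adult brain, against 81.0% in early ahESC and 82.5% in early diploid ESC. The 2 placed neural promoters, Olig2 and Neurod2, stayed at or under 19.7% in all libraries. Olig2 was at 3.52% to 4.98% in brains and 2.53% to 3.30% in embryos, and Neurod2 at 4.57% and 7.88% in 2 brains, with no value in BM adult, and 2.73% to 4.20% in embryos.

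Finally the tiles with the pattern most like each window were found by the root mean square difference over the 12 libraries among 20172 tiles measured in all of them. For Plagl1 the nearest were mm9 chr11:11926001-11927000 at 5.58 points and chr6:4697001-4698000 at 6.03 points, and for Peg3 chr17:12934001-12935000 at 5.75 points and chr2:174124001-174125000 at 5.79 points. No promoter could be placed in these 4 tiles, so they carry no gene name here. The tile chr11:22872001-22873000 was among the 5 nearest of both windows, at 6.97 and 5.97 points, and held the promoters of Zrsr1, an imprinted splicing factor gene, and of of Commd1. The windows themselves differed by 7.36 points, against a median over all tiles of 39.6 points from Plagl1 and 38.0 points from Peg3. In the nearest tile of Peg3 the brains were at 80.9% in BM adult and 66.1% in BM E19.5, against 44.5% in WT adult. At Peg3 they were at 73.4%, 61.8% and 44.8%. These brains are among the 12 libraries by which the tile was chosen, so this closeness is part of the choice. In chr2:174124001-174125000 the same brains were at 57.6%, 59.1% and 52.5%. The likeness is over 12 libraries that differ in depth and cell type and is given as a description.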

How the data were processed

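For the deposited values the authors used Bismark 0.13.1 and Trim Galore with build mm9 of the mouse genome, per the submitters' processing notes. The deposited file gives, per cytosine and library, a methylation percent from 0 to 100, and N where there is no value. It holds no read counts, so depth, intervals and detection limits are unknown, and a minimum depth or pooling is not given in the sources used here. Per the labels' protocols, fragments were selected by size after MspI digestion.

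The members, lists and comparisons were chosen with earlier results of these data known. Window means used each library's own members, at least 5 except in the narrowed Peg3 window. A difference of 25 points was called. The background was made from autosomal tiles of 1 kb with at least 5 cytosines, at 20% in any library, measured in both libraries. Named genes are the members, listed neighbours, imprint factors and markers with a placed promoter, and the 5 tiles most like each window.

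RefSeq promoters and GENCODE M21 first exons were placed where every listed position fell on a cytosine of CpG or GpC, within 6000000 bp, with at least 12 positions for the members and 24 for the other genes. Of 50 reversed sequences none reached 24 (most 23), and 0 bases conflicted among placed sequences. Of 43 listed genes 18 were placed. Placement and calling were tested on simulated data. All 12 sample columns were used, with Python 3.11.15, NumPy 2.4.6, pandas 2.3.3 and Matplotlib 3.10.9. With 1 library per group no test was made.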

Additional observations from a re-analysis of the deposited data

Results flagged for a closer look

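Plagl1 was higher in BM than in WT in adult brain, by 16.0 points, and lower in BM than in WT in E15.5 embryo, by -5.04 points as BM minus WT. The opposite signs drew attention to it, and the difference between the tissues was not tested. Over the 58 cytosines measured in all 12 libraries the embryo value was 55.2% in BM and 52.9% in WT, and the opposite signs were lost.

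Late minus early passage had opposite signs in diploid and haploid cells in the window means. Late minus early was -40.9 points at Plagl1 in diploid ESC, 2.78 points in ahESC and 0.871 points in phESC. At Peg3 it was -50.9 points in diploid ESC, 0.968 points in ahESC and 4.14 points in phESC. The sign at Peg3 in ahESC was not stable, at -1.65 points by the median and -1.29 points without CCGG cytosines. The haploid cells were near 0 at both passages, and the difference was not tested.

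Outside the members, the Peg3 fragment nearest the gene start, over 4 CpG cytosines, was at 17.1% on the plus strand in BM adult brain, against 0.379% in WT adult brain. These cytosines stayed under the 20% that a member needs. Their minus strand had values in early phESC alone, at 0%.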

How the results depend on the processing

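Each of the 36 window differences was recomputed under 10 alternatives, 9 of them planned and 1, the cytosines measured in all 12 libraries, chosen after seeing the data. Of 358 alternative values 345 kept their side of 25 points, and no call changed sign, though some uncalled differences did. Averaging every listed cytosine adds those that stayed under 20%. At Plagl1 these were 52 outside CpG, 1 in CpG and 31 beyond the placed sequence, and at Peg3 12, 11 and 1. At Plagl1 early ahESC minus early diploid ESC then became -20.2 points and early phESC minus early diploid ESC -20.2 points. Late minus early diploid ESC became -20.2 points. At Peg3 the same differences were -23.9, -24.7 and -24.3 points, with BM minus WT adult brain at 11.5 points. Calls between embryos held there at Plagl1 and Peg3, with BP minus WT at -30.1 and -27.2 points and BM minus BP at 26.1 and 28.9 points. With the strands of placed CpGs averaged, BM minus WT adult brain at Peg3 was 23.1 points. That setting brings in CCGG cytosines that are not members. They are 6682974, at 6.23% in BM and 10.4% in WT, and 6683038, at 10.2% and 8.71%. BM adult minus BM E19.5 brain at Plagl1 passed 25 points over cytosines measured in both (30.7), with the median (34.6), without placed CCGG (28.1), in the narrowed window (26.2) and over cytosines measured in all 12 (34.9). The narrowed Peg3 window left 3 cytosines a library, under the 5 set as minimum, and no value for the 2 comparisons with late phESC. A call at 10 points moved 33 of 36 background shares by over 1.5 times, and 20% outside the pair moved 1. No paired analysis was possible because each group is 1 library. Unknown depth limits all values.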
